A study of Mus musculus with 40 samples.

Results

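Regions that carried H3K27ac, H3K4me1 or both were compared within blood progenitors of 1 genotype, Flt3-ITD/Runx1-het. H3K4me1 is laid down on enhancers that are open to regulation, and acetylation of histone H3 at lysine 27 is added when an enhancer or a promoter is in use. By convention a distal element with both marks is called active and one with H3K4me1 alone is called primed, meaning marked in advance of activity. Active gene starts carry H3K27ac over the nucleosomes next to the start, and H3K4me1 is moved to the flanks, because the start itself carries the trimethylated form of lysine 4.

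The 2 peak lists of the genotype, 1 per mark, were merged where peaks shared at least 1 bp, which gave 122791 regions. The 12 lists of the whole series gave 184295 regions when merged the same way. A region was a promoter region when it came within 1 kb of the transcription start site of a protein-coding gene (mm10), and distal otherwise. The cells were haematopoietic stem cells and progenitor cells (HSCs and HPCs) sorted from mice 21 days of age. Flt3-ITD is an internal tandem duplication in the receptor tyrosine kinase gene Flt3 that signals without its ligand. Runx1-het is the genotype label. Its source names add Runxf and Vav to ITD. These were taken to mean a floxed allele of Runx1, a transcription factor gene, and a transgene under Vav, a promoter active across blood cells. The labels do not spell out the alleles. The compared genotypes were wild type, Flt3-ITD alone and Runx1-het alone, and each group had 3 samples per mark. The marks were mapped by ChIPmentation, in which the transposase Tn5 adds sequencing adapters to chromatin while it is held on the antibody.

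Each group gave 1 pooled list, so there is no value per animal, no spread between animals and no p-value. A share is given with its 95% Wilson interval, which covers counting error only. Read depth is unknown, and a mark was absent from a region when no listed peak reached it. Fold enrichment is the value the authors' peak caller gave to a peak, and it ranks peaks within a list. The H3K27ac list held 42677 peaks with a median width of 586 bp, and the H3K4me1 list held 117039 peaks with a median width of 296 bp. The 3 other genotypes had 31978 to 43363 H3K27ac peaks and 72682 to 94580 H3K4me1 peaks. The list of stem and multipotent progenitor genes had H3K27ac at 17 of 22 promoters, among them Kit, Cd34, Meis1, Hlf and Mecom. Over all genes, 23.2% of promoters had both marks and 23% H3K27ac only. The T and NK cell list had H3K27ac at 3 of 17, namely Lck (fold enrichment 10.1), Cd5 (9.05) and Gata3 (5.84). None of Cd3e, Cd3d, Cd3g and Cd8a had a listed promoter peak of either mark. Procr and Tek, also markers of stem cells, had none either.

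The bases before the start of 6 genes are shown because promoters of the 3 classes differed in their content of CpG dinucleotides, the base of CpG islands. They are printed from RefSeq (GRCm38.p6, 5′ to 3′ on the strand of the gene, 250 bases each), with every CpG in capitals. The genes were chosen after their classes were known.
Pim1, H3K27ac only (chr17:29490535-29490784, plus strand): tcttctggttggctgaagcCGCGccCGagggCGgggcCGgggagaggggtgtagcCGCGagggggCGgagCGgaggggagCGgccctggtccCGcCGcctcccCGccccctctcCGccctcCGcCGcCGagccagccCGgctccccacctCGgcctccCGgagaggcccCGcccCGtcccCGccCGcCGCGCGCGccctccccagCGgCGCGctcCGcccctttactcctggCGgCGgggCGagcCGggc
Flt3, both marks (chr5:147400490-147400739, minus strand): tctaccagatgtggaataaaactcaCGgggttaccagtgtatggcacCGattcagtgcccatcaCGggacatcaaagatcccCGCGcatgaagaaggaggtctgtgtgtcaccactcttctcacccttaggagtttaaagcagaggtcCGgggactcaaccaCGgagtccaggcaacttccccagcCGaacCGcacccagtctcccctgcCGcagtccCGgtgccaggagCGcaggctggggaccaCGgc
Runx1 downstream start, both marks (chr16:92697330-92697579, minus strand): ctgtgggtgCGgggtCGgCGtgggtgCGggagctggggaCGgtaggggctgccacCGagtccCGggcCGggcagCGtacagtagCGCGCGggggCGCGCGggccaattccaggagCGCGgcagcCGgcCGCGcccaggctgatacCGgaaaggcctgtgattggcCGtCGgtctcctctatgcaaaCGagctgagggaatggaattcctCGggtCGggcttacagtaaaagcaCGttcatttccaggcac
Runx1 upstream start, both marks (chr16:92826075-92826324, minus strand): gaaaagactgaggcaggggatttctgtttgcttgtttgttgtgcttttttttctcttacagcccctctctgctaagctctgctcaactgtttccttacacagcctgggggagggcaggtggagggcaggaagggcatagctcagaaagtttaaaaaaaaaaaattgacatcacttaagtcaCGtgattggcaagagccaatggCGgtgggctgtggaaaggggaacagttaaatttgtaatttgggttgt
Mpo, both marks (chr11:87793534-87793783, plus strand): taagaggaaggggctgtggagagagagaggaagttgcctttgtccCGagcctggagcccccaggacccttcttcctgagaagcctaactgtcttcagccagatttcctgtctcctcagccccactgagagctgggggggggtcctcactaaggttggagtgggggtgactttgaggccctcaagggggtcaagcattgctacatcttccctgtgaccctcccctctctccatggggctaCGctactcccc
Elane, H3K4me1 only (chr10:79886062-79886311, plus strand): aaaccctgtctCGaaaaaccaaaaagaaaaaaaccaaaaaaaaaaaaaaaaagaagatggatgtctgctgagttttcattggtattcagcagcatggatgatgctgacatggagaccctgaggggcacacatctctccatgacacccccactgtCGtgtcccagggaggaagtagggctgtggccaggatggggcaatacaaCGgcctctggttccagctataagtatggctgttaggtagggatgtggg
Hdc, H3K4me1 only (chr2:126618679-126618928, minus strand): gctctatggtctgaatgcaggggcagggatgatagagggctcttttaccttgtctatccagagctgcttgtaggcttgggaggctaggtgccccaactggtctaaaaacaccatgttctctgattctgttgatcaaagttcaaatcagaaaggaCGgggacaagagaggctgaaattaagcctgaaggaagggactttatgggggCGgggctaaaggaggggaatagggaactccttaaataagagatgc

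Pim1, a serine/threonine kinase gene induced by cytokine receptors, had 36 CpG in these bases, and its start carried an H3K27ac peak with a fold enrichment of 32.7 and no H3K4me1 within 1 kb. Flt3 had 13 CpG, with fold enrichments of 17.8 for H3K27ac and 4.03 for H3K4me1. The 2 starts of Runx1 differ in sequence type and shared a class. The downstream start had 27 CpG (H3K27ac 10.8, H3K4me1 4.78) and the upstream start 2 CpG (H3K27ac 14.7, H3K4me1 6.02). Mpo, the myeloperoxidase gene of granulocyte precursors, had 2 CpG and both marks (6.91 and 4.03). Elane, which encodes neutrophil elastase, had 3 CpG with H3K4me1 only (3.18). Hdc, the histamine-making enzyme of mast cells and basophils, had 2 CpG with H3K4me1 only (3.66). CpG-poor starts thus occurred with and without acetylation.

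Distal regions made up 87.3% of all regions, and most of them carried H3K4me1 alone. There were 77885 distal regions with H3K4me1 only, 18843 with both marks and 10438 with H3K27ac only. Of the 96728 distal regions with H3K4me1, 19.5% also held H3K27ac (95% interval 19.2 to 19.7%). In the other direction, 64.4% of the 29281 distal regions with H3K27ac held H3K4me1 (63.8 to 64.9%). The primed class was thus the largest by number, but its members were small. It covered 25.1 Mb, against 22.5 Mb for the distal regions with both marks and 4.68 Mb for those with H3K27ac only.

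**Figure D1:**
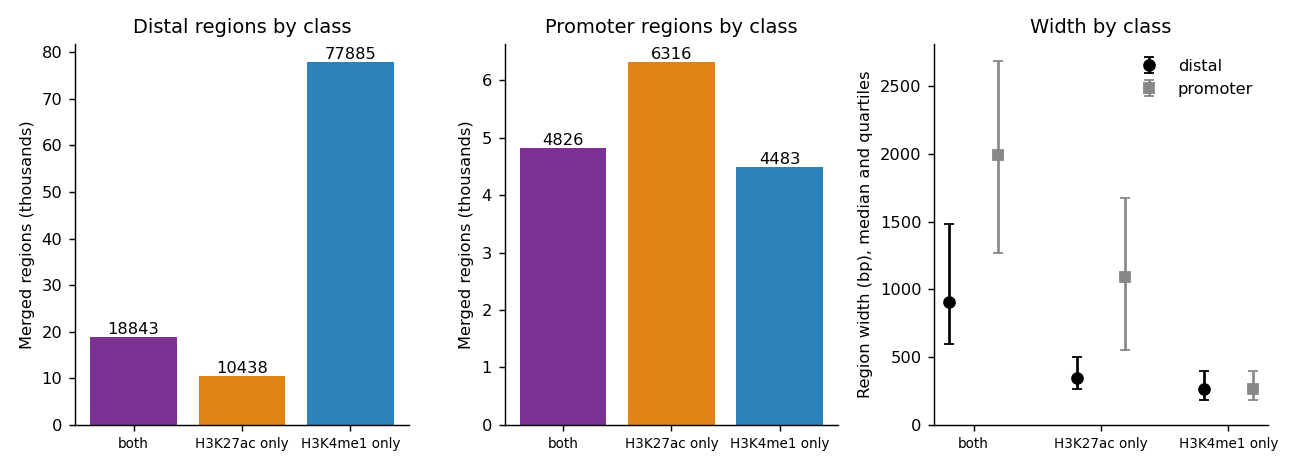
Number of merged regions by class at distal sites (left) and promoters (middle, own scale), and their width (right; points are medians and bars run from the lower to the upper quartile). Distal regions are mainly H3K4me1 only (77885), promoter regions are spread over the 3 classes, and regions with both marks are the widest at both kinds of site.

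At promoters the 3 classes were of more even size. H3K27ac alone marked 6316 regions, both marks 4826 and H3K4me1 alone 4483. Of the 11142 promoter regions with H3K27ac, 43.3% also held H3K4me1 (42.4 to 44.2%). These shares rest on how much of the long H3K4me1 list is used. With the H3K4me1 list shortened to its strongest 42677 peaks, the distal share became 34.8% and the promoter share 21.9%. The promoter share was 12.96% among peaks with −log10 q of at least 5, and 74.7% when peaks within 1 kb of each other were joined.

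Regions with both marks were wide and regions with H3K4me1 alone were narrow. The median width was 905 bp for distal regions with both marks, 348 bp with H3K27ac only and 262 bp with H3K4me1 only. At promoters it was 1991 bp, 1090 bp and 264 bp in the same order. Part of this follows from the merging, since a region with both marks joins at least 2 peaks.

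The signal of each mark was also higher where the other was present. The median H3K27ac fold enrichment was 9.76 at promoters with both marks and 6.73 at promoters with H3K27ac only. It was 4.42 and 3.66 at the matching distal classes. For H3K4me1 the median was 5.14 at distal regions with both marks and 4.06 at distal regions with H3K4me1 only. The strongest acetylation was thus at promoters, and the strongest H3K4me1 at distal regions that were also acetylated. Within the H3K4me1-only class, promoter and distal regions had the same median (4.06) and nearly the same width. Each region took the highest value of its peaks, and a region with a single mark held 1 peak. Of the regions with both marks, 28.6% at promoters and 30.6% at distal sites held 2 or more H3K4me1 peaks. The part of this in the higher medians was not tested.

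Peak by peak, H3K27ac was found more often the stronger the H3K4me1. Among distal H3K4me1 peaks with a fold enrichment under 3.5, 16.3% overlapped an H3K27ac peak (3290 of 20202). From a fold enrichment of 8 upward, 72.8% did (1257 of 1726, 70.7 to 74.9%). Stronger peaks were also wider, with a median of 215 bp in the weakest group and 868 bp in the strongest, and a wide peak meets another peak more easily. Among peaks of 250 to 400 bp the share rose from 18.96% to 42.2% (43 of 102, 33.0 to 51.9%) between the same groups, so a smaller gradient was present at like width.

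H3K4me1 was likewise found more often at stronger H3K27ac peaks, up to the highest distal group, with a level that depended on the site. Distal H3K27ac peaks under a fold enrichment of 4 overlapped H3K4me1 in 55.3% of cases, those from 10 to 20 in 86.7% and those from 20 upward in 83.2% (158 of 190). Promoter peaks did so in 30.5% of cases under 4 and in 60.6% from 20 upward. Here too width rose with strength, from 390 to 2452.5 bp (medians) at promoters.

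**Figure D2:**
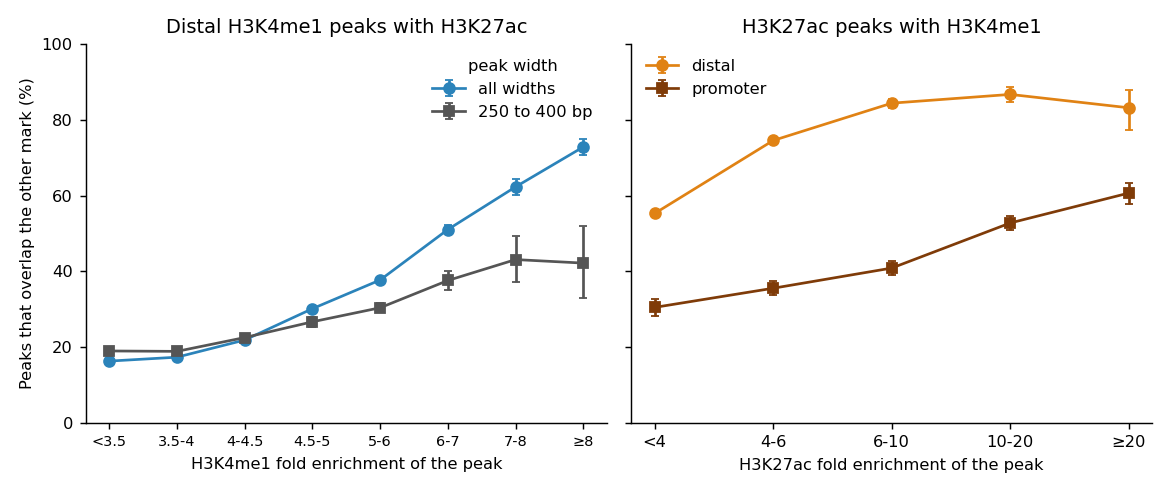
Share of peaks that overlap a peak of the other mark, by the authors' fold enrichment of the peak, with 95% Wilson intervals. Left, distal H3K4me1 peaks of all widths and of 250 to 400 bp, where the share rises from 16.3 to 72.8% and from 18.96 to 42.2%. Right, H3K27ac peaks, where distal peaks lie above promoter peaks in every group.

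Around gene starts the marks were arranged as an acetylated centre with H3K4me1 at its sides. For this description each of 21827 protein-coding genes was classed by the peaks within 1 kb of any of its start sites, and peak cover was read from the annotated gene start. Genes with both marks numbered 5056 (23.2% of all), genes with H3K27ac only 5018 (23% of all) and genes with H3K4me1 only 1508 (6.91% of all). At the genes with both marks, H3K27ac covered the start itself in 77.6% and H3K4me1 in 4.15%. H3K4me1 cover rose to 23.6% at -950 bp and to 30.6% at 1000 bp, so the downstream flank carried it more often than the upstream flank.

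Genes classed as H3K27ac only had the same acetylated centre, with 82.3% covered at the start. By the rule they have no H3K4me1 peak within 1 kb, but just outside it their cover reached 7.67% at -1600 bp and 16.2% at 1650 bp. Some of these starts therefore also had an H3K4me1 flank, placed farther out. The genes with H3K4me1 only looked different. Cover was 7.43% at the start, 19.2% at -750 bp and 17.2% at 1000 bp, and H3K27ac stayed at or below 3.05% over the window from -3000 to 3000 bp.

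**Figure D3:**
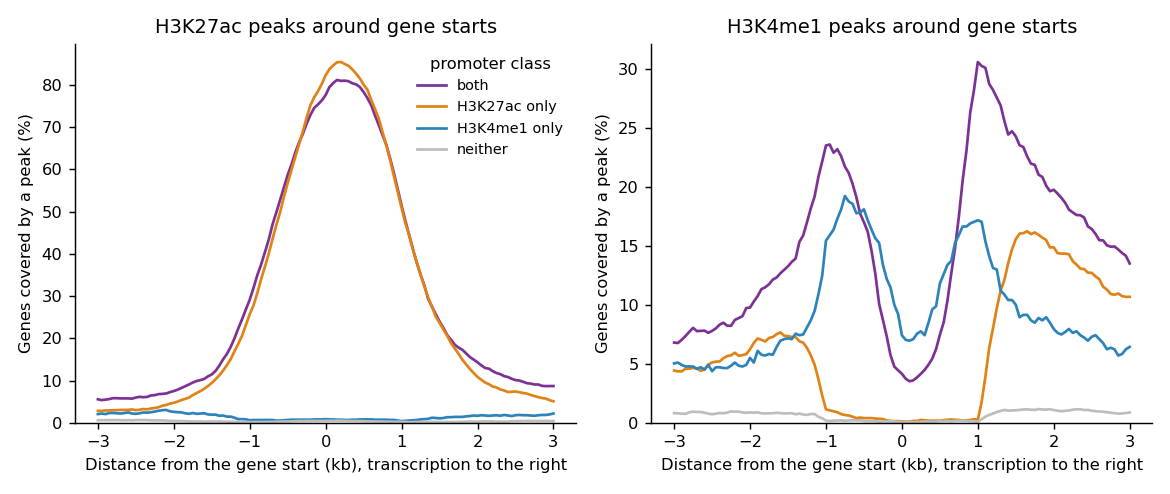
Share of genes whose position at a given distance from the gene start (kb) is covered by an H3K27ac peak (left) or an H3K4me1 peak (right), for the 4 promoter classes. H3K4me1 dips at the start (4.15% in the class with both marks) and peaks near 1 kb on either side. The steps at 1 kb come from the class rule.

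Summit positions differed between promoters and distal sites. At promoter regions with both marks the strongest H3K27ac and H3K4me1 summits lay a median of 772 bp apart, and 31.6% of pairs lay within 500 bp. At distal regions with both marks the median was 219 bp, and 77.5% lay within 500 bp. The promoter regions were also wider (median 1991 against 905 bp), and the part of width in this distance was not tested.

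Over all genes, promoter DNA differed between the classes in CpG content. CpG islands are the promoter type of most broadly used genes. RefSeq gives 21238 start sites of protein-coding genes with 300 bases around each (250 before to 50 after the start, GRCm38.p6), and each was classed by peaks within 1 kb of it. A start was called CpG rich when its GC content was at least 50% and its observed over expected CpG ratio at least 0.6. This was so for 77.9% of the 5339 starts with H3K27ac only (76.7 to 79.0%), 66.8% of the 4444 with both marks (65.4 to 68.2%) and 37.5% of the 1394 with H3K4me1 only (35.0 to 40.1%). Among the 10061 starts with neither mark it was 19.2%. The intervals of the 4 classes did not overlap, so the classes differed by more than counting error.

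Short motifs of blood transcription factors were counted in the same 300 bases, on both strands. The GABP form of the ETS motif, ACCGGAAGT, was in 2.68% of starts with H3K27ac only, 2.77% with both marks, 0.646% with H3K4me1 only and 1.44% of all. The AP-1 motif TGANTCA was in 3.95%, 4.86%, 8.82% and 6.99% in the same order. The E-box CAGCTG was in 12.6%, 14.2%, 21.2% and 15.6%. For RUNX, the short form TGTGGT was in 11.4%, 13.5%, 13.8% and 15.0%, so none of the marked classes exceeded the share of all starts. For STAT, TTCNNNGAA was in 6.29%, 7.49%, 8.32% and 7.69%, and its stricter form TTCCNGGAA in 1.33%, 1.62%, 1.72% and 1.17%. The GATA motif AGATAAG was in 1.48%, 1.55%, 3.23% and 2.65%. The interval of the H3K4me1-only class lay apart from those of both acetylated classes for the GABP form, AP-1, the E-box and this GATA form. It overlapped that of the class with both marks for RUNX, both STAT forms and another GATA form, CAGATAA (2.80% and 2.21%). Starts with neither mark held the GABP form in 0.308%, AP-1 in 9.29%, the E-box in 17.0% and AGATAAG in 3.67%. High AP-1 and GATA shares were thus not particular to the H3K4me1-only class. The PU.1 form of the ETS motif, AGAGGAAGT, was in 1.43% of H3K4me1-only starts, 1.49% with both marks, 0.955% with H3K27ac only and 1.03% of all. The H3K4me1-only value rests on 20 starts, and its interval (0.931 to 2.21%) included the share of all. Motif content moves with CpG content, and its own part in these differences was not tested. A match is a match of letters, not a bound site.

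The strongest regions of each class are given by gene. Among promoters with both marks the 5 highest H3K27ac values were at Unk (68.6), an RNA-binding protein gene, Pla2g6 (56.6), a phospholipase, Babam2 (54.8), of a BRCA1 complex, Isca1 (54.1), for iron-sulfur cluster assembly, and Mfn2 (52.8), for mitochondrial fusion. With H3K27ac only they were Usp38 (60.2), a deubiquitinase, Kat5 (60.0), a histone acetyltransferase, Coq7 (55.5), for coenzyme Q synthesis, Ppp1r10 (53.2), a phosphatase subunit, and Riok2 (52.7), a kinase of ribosome assembly. The promoters with the strongest H3K4me1 and no H3K27ac were at Fam110a (H3K4me1 11.0), Vsir (10.6), an inhibitory receptor of immune cells, Cnot11 (9.86), of the deadenylase complex, Hsd11b1 (9.72), which regenerates active glucocorticoid, and Oacyl (9.50).

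Several of the strongest distal acetylated regions sat on starts of other transcript types. The distal region with both marks and the highest H3K27ac value (58.6) lay 3.88 kb from the start of Sirt4, in intergenic sequence at chr5:115488602-115490674, over the start of a small nuclear RNA gene, Gm24265. The fourth (44.3), in an intron of Tex14 at chr11:87421896-87424600, lay over another, Rnu1a1. The others of the 5 were near Zfp869 (52.1) and Gm21887 (44.6), and 1 had no protein-coding start within 50 kb. Over the whole class, 12.4% of distal regions with both marks lay within 1 kb of another annotated transcript start, as did 12.6% of those with H3K27ac only and 8.46% of those with H3K4me1 only. Without these regions the distal share with H3K27ac was 18.8%.

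Of the 5 strongest distal regions with H3K27ac only, 2 had no protein-coding start within 50 kb, among them the first (52.2). The others were near Anp32e (48.4), a histone chaperone gene, Ubash3b (37.6), a phosphatase that dampens receptor signalling, and Pisd (34.9), of phospholipid synthesis. The region near Pisd and the 2 without a protein-coding start lay over starts of other annotated transcripts. The strongest distal H3K4me1-only regions lay near Cbx8 (13.1), a Polycomb subunit, Capn5 (13.1), a calpain, Arid1b (12.04), a subunit of the SWI/SNF chromatin remodeller, and Slc35e1 (11.9), and 1 of the 5 had no protein-coding start within 50 kb. The region at Capn5, chr7:98157039-98158095, was intronic and 4.25 kb from the start. The distal classes hardly differed in position. Introns held 61.1% of the regions with both marks, 58.9% of those with H3K27ac only and 59.6% of those with H3K4me1 only, and the median distance to a protein-coding start was 21.6, 25.3 and 20.1 kb.

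Of the distal H3K4me1-only regions, 54.2% had an H3K27ac peak within 5 kb (53.8 to 54.5%), with no comparison set. Genes with an active promoter also had more active distal regions. Assigning each distal region to the nearest start within 50 kb, genes with both marks at the promoter had a mean of 1.37 distal regions with both marks, genes with H3K27ac only 0.829, genes with H3K4me1 only 0.682 and genes with neither 0.164. The means for distal H3K4me1-only regions were 4.57, 3.51, 3.77 and 0.973. Genes whose promoter had H3K4me1 alone thus had a mean number of primed neighbours between those of the acetylated classes, and 30.4% of them had at least 1 distal region with both marks.

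The genes with most distal regions with both marks included regulators of blood cells. Runx1 had 34 such regions and 50 with H3K4me1 only, the transcription factor gene Foxp1 33 and 77, and Sgms1, a sphingomyelin synthase, 33 and 42. Cmip (31 and 23), Map7 (29 and 20), Sept9 (29 and 41), the kinase scaffold Ksr1 (28 and 32), the PI3-kinase subunit Pik3r1 (26 and 34), the phosphatase Ptpre (25 and 32) and Fam107b (25 and 54) followed. Cmip and Map7 had more distal regions with both marks than with H3K4me1 only. All 10 had both marks at the promoter, against 23.2% of all genes. This class takes peaks near any start site of a gene, so genes with more start sites can reach it more easily. The part of this was not tested.

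Ranked by H3K4me1-only regions, Foxp1, Fam107b and Runx1 came up again, joined by Prex1 (65 with H3K4me1 only against 18 with both), Gse1 (57 and 6), Dock10 (50 and 12), Mgat5 (49 and 14), St3gal1 (48 and 15), Itga9 (47 and 9) and Pde4d (47 and 11). Gse1 stood at the primed end of the 10. Gse1 and St3gal1 had H3K27ac only at the promoter, and Itga9, an integrin subunit, H3K4me1 only. Counts of this kind grow with the length of a gene and of the space around it.

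For 16 lists of genes the promoters and the distal regions were counted beside all genes. Within 50 kb of a start, 19.7% of all distal H3K4me1 regions held H3K27ac. In the blood transcription factor list the share was 31.0% (163 of 526, 27.2 to 35.1%), and it was 29.2% without Runx1. In the STAT5 target list it was 27.9% (70 of 251, 22.7 to 33.7%) and in the ERK feedback and early response list 25.5% (66 of 259, 20.6 to 31.1%). In the interferon response list it was 29.5% (23 of 78, 20.5 to 40.4%), in the granulocyte list 28.3% (32 of 113, 20.8 to 37.2%) and in the cytokine receptor list 26.5% (48 of 181, 20.6 to 33.4%). The intervals of these 6 lists lay above 19.7%, although Erg, Gata2, Csf3r, Gfi1, Cebpa and others are in more than 1 list. Without the gene with most such regions, 3 of these 6 intervals included 19.7%. They were those of the ERK list (23.5%, 18.5 to 29.4%, without Dusp5), the cytokine receptor list (24.5%, 18.6 to 31.7%, without Kit) and the interferon list (29.2%, 19.6 to 41.2%). The intervals of the other 10 lists included it, with shares from 17.2% (B lymphoid) to 26.1% (mast cell, basophil and eosinophil).

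Promoters of the 12 ubiquitous genes had both marks at 8 and H3K27ac only at 4 (23.2% and 23% of all genes). Of the 20 genes not expressed in blood, 17 had neither mark (46.9% of all genes), and the exception with both was Pecam1, an adhesion molecule that platelets and leukocytes also carry. The 24.1% distal share of that list was 13.3% without Pecam1.

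STAT5 is the main transcription factor that mutant FLT3 activates, and its targets are feedback inhibitors, cyclins and survival genes. Their promoters had H3K27ac only at 10 of 18 (23% of all genes) and both marks at 5. The feedback inhibitors Socs1 (9.25), Socs2 (17.8) and Socs3 (4.12, promoter fold enrichment of H3K27ac) were all H3K27ac only, and so were Mcl1 (21.6), an anti-apoptotic gene, and Ccnd2 (10.3). Cish, another feedback inhibitor, had both marks (H3K27ac 7.81, H3K4me1 6.31), and Id1 had H3K4me1 only. In the wild-type lists Socs2 and Socs3 had neither mark at the promoter and Cish had H3K4me1 only. Socs2 had the same class in Flt3-ITD and neither mark in Runx1-het, and Socs3 had neither in both. Ccnd1 went the other way, with H3K27ac only in wild type (3.02) and neither mark in Flt3-ITD/Runx1-het. It had H3K4me1 only in Flt3-ITD and neither mark in Runx1-het. Over all genes, 2330 of 12171 promoters with neither mark in wild type had a mark in Flt3-ITD/Runx1-het (19.1%). In reverse, 404 of 9656 promoters with a mark in wild type had neither in Flt3-ITD/Runx1-het (4.18%).

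Distal to these genes, Ccnd3, the D-type cyclin of blood progenitors, had most regions with both marks (12, and 20 with H3K4me1 only), followed by Socs2 (8 and 10), Mcl1 (7 and 4) and Lrrc8c (7 and 13). Socs3 (5 and 24) and Bcl2l1 (4 and 19), an anti-apoptotic gene, had mostly primed regions. That was near the level of all genes, where 19.7% of distal H3K4me1 regions within 50 kb held H3K27ac. The strongest distal region at Socs2, chr10:95394367-95399477 in intronic sequence 15.8 kb from its start, had fold enrichments of 15.3 and 7.69 and both marks in all 3 other genotypes. At Ccnd3 the strongest, chr17:47521253-47521656 in an intron (7.09 and 5.14), had neither mark in wild type and H3K27ac only in Flt3-ITD and in Runx1-het. So regions shared by all 4 genotypes and regions outside the wild-type lists both occurred at STAT5 targets.

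Interferon response genes had both marks at 15 of 23 promoters (23.2% of all genes) and H3K27ac only at 6. The transcription factors Irf9 (16.4) and Irf7 (10.8, H3K27ac) had both, and so did the antiviral gene Isg20 (12.97). Ifit2 had H3K4me1 only and Oas1a neither. These genes had few distal regions, 23 with both marks and 55 with H3K4me1 only.

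H3K4me1-only promoters were unevenly spread over the lineage lists. They made up 6 of 17 monocyte and macrophage genes, 5 of 16 dendritic cell genes and 5 of 16 genes of mast cells, basophils and eosinophils, against 6.91% of all genes. They were 3 of 18 in the granulocyte list, 3 of 15 in the B lymphoid, 2 of 17 in the T and NK cell, 1 of 15 in the megakaryocyte and 0 of 18 in the erythroid list. Among the monocyte genes they were Csf1r, the receptor for macrophage colony-stimulating factor (H3K4me1 5.87), the transcription factor Irf8 (3.75), the chemokine receptor Ccr2 (4.78), the integrin Itgam (4.32), Adgre1 (4.06) and Mpeg1 (4.42). Lyz2, the lysozyme gene, had both marks (H3K27ac 6.55, H3K4me1 7.32). In the dendritic cell list they were Irf8, Irf4, Cd74, Ciita and Id2, the last 3 of which act in antigen presentation or in the choice of lineage. In the mast cell list they were Gata2, Cma1, Mcpt8, Prg2 and Hdc. Of the 15 genes named here, counting Irf8 singly, Ccr2, Itgam and Id2 had H3K4me1 only in each of the 4 genotypes. Irf8, Adgre1, Irf4 and Hdc had it only in this genotype (fold enrichments of 3.66 to 4.78), with neither mark in the 3 others. That was common, since 1068 of all 1508 genes with H3K4me1 only here had neither mark in wild type. The H3K4me1 list of this genotype was also longer, with 117039 peaks against 72682 to 94580 in the 3 others.

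Distal regions with both marks varied among these genes. Ciita, Cma1, Mcpt8 and Prg2 had 0, and Irf4 and Id2 had 1 each. Irf8 had 5 distal regions with both marks and 34 with H3K4me1 only, and Itgam 6 and 9. Hdc had 9 and 11, the strongest at chr2:126635396-126637059 in intronic sequence 16.7 kb from the start (H3K27ac 14.6, H3K4me1 5.87), with both marks in all 4 genotypes. Gata2 had 6 and 15. Its strongest, chr6:88164448-88167109, was intergenic and 26.8 kb from the start (12.3 and 4.61), and it had H3K27ac only in the 3 other genotypes. A promoter with H3K4me1 alone could thus have a strongly acetylated neighbour.

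Granulocyte genes had both marks at 5 of 18 promoters and neither at 8, near the shares of all genes (23.2% and 46.9%). The primary granule genes Mpo (6.91) and Prtn3 (4.06) had both, Ctsg (7.10) H3K27ac only and Elane H3K4me1 only. Of the genes of later granules and the neutrophil cytosol, Ltf had both marks (H3K27ac 3.70, H3K4me1 5.87), Mmp9 H3K4me1 only (3.33), and Lcn2, Camp, Ngp, S100a8, S100a9 and Mmp8 no listed promoter peak of either mark. In wild type 0 of the 18 had both marks and 13 had neither, while over all genes 15.9% had both and 55.8% neither there. The transcription factor Gfi1 had most distal regions of the list (9 with both marks, 26 with H3K4me1 only), and its strongest, chr5:107748640-107750509 (H3K27ac 15.3), had both marks in all 4 genotypes.

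Neither mark was listed at the promoters of 10 of 18 erythroid, 6 of 15 B lymphoid and 12 of 17 T and NK cell genes, against 46.9% of all genes. Among the erythroid genes Gata1, Epor, Alas2 and both alpha globin genes had none, Nfe2 and the beta globin genes Hbb-bs and Hbb-bt had both marks. Bcl11a (14.4), Tfrc (10.5), Zfpm1 (7.09), Car2 (5.24) and Klf1 (3.17) had H3K27ac only. The 2 globin copies of each cluster are near identical, so reads from them may be hard to place. Among the lymphoid genes Dntt (H3K27ac 11.9), Rag2 (10.8), Lck (10.1), Cd5 (9.05) and Cd79b (4.59) had both marks, and Vpreb1, Igll1, Bach2 and Gata3 had H3K27ac only. Megakaryocyte genes had both marks at 7 of 15 (23.2% of all genes), with Itga2b, Gp1ba and Pf4 among them.

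**Figure D4:**
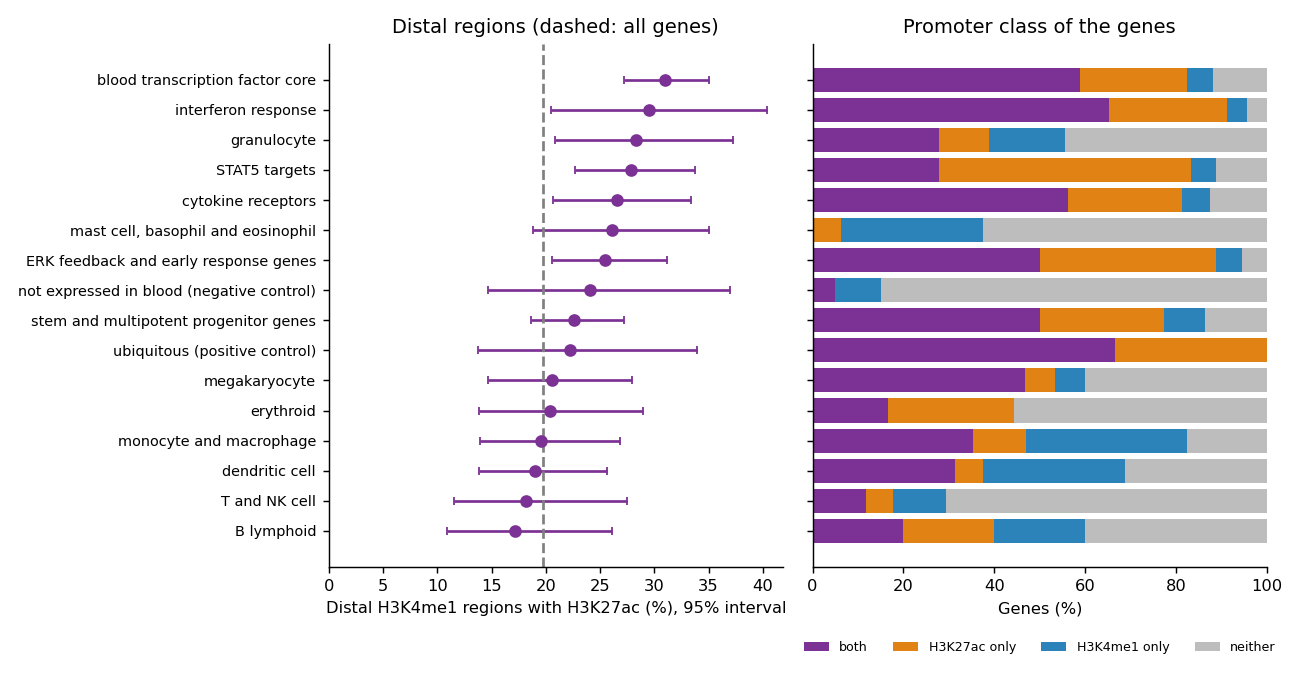
Left, share of distal H3K4me1 regions with H3K27ac near the genes of each list (nearest start within 50 kb), with 95% Wilson intervals. The dashed line is all genes (19.7%). Right, promoter class of the genes of each list. The 16 lists share some genes.

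Stem and progenitor genes had both marks at 11 of 22 promoters and H3K27ac only at 6 (23.2% and 23% of all genes). Erg, an ETS factor of stem cells, held a wide intronic region, chr16:95435481-95450254, with fold enrichments of 24.8 for H3K27ac and 12.95 for H3K4me1 and with both marks in the 3 other genotypes. Mecom had 9 distal regions with both marks and 36 with H3K4me1 only, Lmo2 10 and 21, and Hlf 6 and 29. Meis1, a homeobox cofactor gene, had H3K27ac only at its promoter (23.0) and mainly primed distal regions (3 and 22). The genes named here thus combined acetylated promoters with primed neighbours. Other members did not, as Gata2 and Slamf1 had H3K4me1 only at the promoter, and Prdm16, Procr and Tek neither mark. Of the distal H3K4me1 regions of the list, 22.6% held H3K27ac (81 of 358, 18.6 to 27.2%). That interval included the 19.7% of all genes, so the primed share of the list was not set apart from theirs.

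At the genes behind the genotype, Flt3 had both marks at the promoter and 5 distal regions with both marks against 2 with H3K4me1 only. The strongest, chr5:147363867-147368985 in an intron 31.5 kb from the start, had fold enrichments of 19.4 and 6.89 and both marks in the 3 other genotypes. At Runx1 the strongest distal region with both marks was intronic, chr16:92714591-92717105 (11.4 and 4.78). It had both marks in Flt3-ITD and in Runx1-het and H3K27ac only in wild type. A second intronic region, chr16:92692901-92694912 (6.38 and 4.06), 1.21 kb from a protein-coding start and 583 bp from another annotated Runx1 transcript start, had H3K4me1 only in each of the 3 other genotypes. It was 1 of the 5 strongest of its kind by H3K27ac.

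Side by side with the parent genotypes, the share of distal H3K4me1 regions with H3K27ac was much alike on the autosomes. It was 19.5% in Flt3-ITD/Runx1-het (19.3 to 19.8%), 20.1% in wild type, 21.2% in Flt3-ITD and 20.4% in Runx1-het. The order of the genotypes depended on list length. With the strongest 31978 H3K27ac and 72682 H3K4me1 peaks of each list the shares were 21.2, 16.7, 23.2 and 20.4%, so wild type moved from above the double mutant to below it. More of the acetylated distal regions held H3K4me1 in Flt3-ITD/Runx1-het (64.7%) than in wild type (42.7%), with 67.9% in Flt3-ITD and 57.4% in Runx1-het. The H3K4me1 lists of Flt3-ITD/Runx1-het and wild type differ in length (117039 and 73506 peaks), but those of Runx1-het (72682) and wild type hardly do. The acetylated regions differed as well. In wild type 17328 autosomal distal regions carried H3K27ac alone, with a median width of 265 bp. Flt3-ITD/Runx1-het had 10254 (346 bp), Flt3-ITD 7739 (443 bp) and Runx1-het 9169 (492 bp). The part of either list in this share was not tested. List length and genotype cannot be told apart.

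Distal regions with both marks were mostly marked in the other genotypes too, and primed ones less so. Of the 18790 autosomal distal regions with both marks, 77.7% overlapped a peak of either mark in wild type, 89.6% in Flt3-ITD and 78.8% in Runx1-het. Of the 77452 with H3K4me1 only, 33.8%, 46.0% and 35.1% did. Both marks were found again at 41.8% of the former in wild type (41.1 to 42.5%), 59.4% in Flt3-ITD (58.7 to 60.1%) and 44.5% in Runx1-het (43.8 to 45.2%). The Flt3-ITD lists thus shared most with those of Flt3-ITD/Runx1-het, also with lists of equal length (47.3, 65.1 and 53.9%). They also covered the most sequence, 51.7 Mb for H3K4me1 against 35.2 Mb in wild type and 38.7 Mb in Runx1-het, and the part of this in the order was not tested. Regions with both marks were wider and met any list more easily. With 500 bp around the strongest summit in place of the whole region the shares were 31.5, 52.1 and 35.9%.

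**Figure D5:**
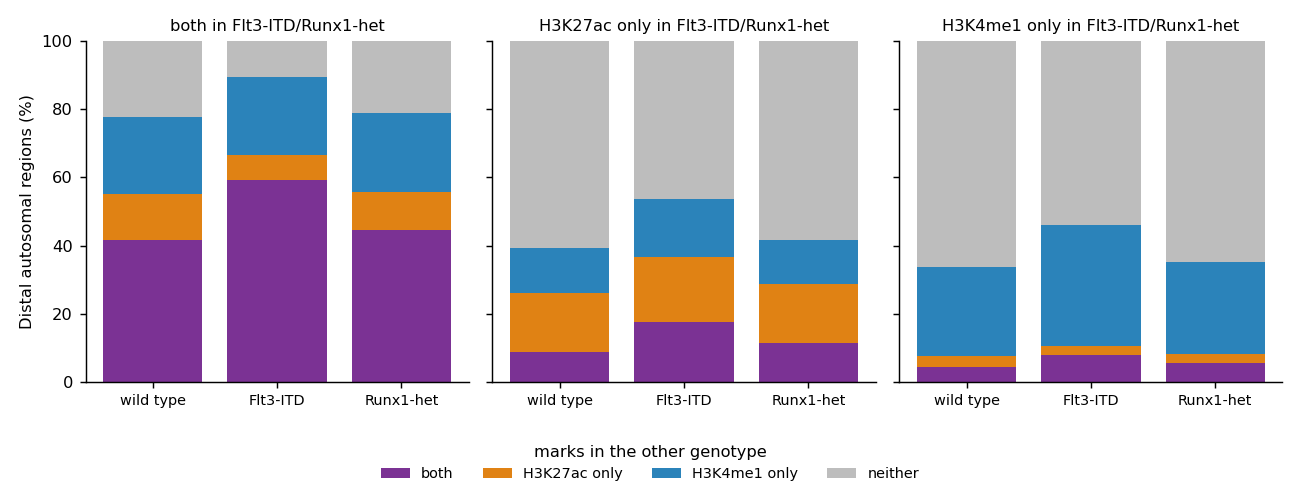
Marks found in wild type, Flt3-ITD and Runx1-het at the autosomal distal regions of Flt3-ITD/Runx1-het, by their class there. Regions with both marks keep both in 41.8, 59.4 and 44.5%, and most H3K4me1-only regions have neither mark in wild type (66.2%).

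How many regions were found again followed their strength. Among distal regions with both marks, 31.6% of those with an H3K27ac fold enrichment under 4 had H3K27ac in wild type, and 97.8% of those from 8 upward did (1990 of 2035). Among the distal H3K4me1-only regions, 21.7% of those under 4 had H3K4me1 in wild type and 76.1% of those from 8 upward did (356 of 468). Strong regions were thus found again in wild type more often than weak ones. Weak regions were also the larger group, as 29575 of the 77452 H3K4me1-only regions were under 4 and 468 from 8 upward. Stronger peaks were wider and meet another peak more easily, and the part of width in this was not tested.

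Some elements were acetylated in Flt3-ITD/Runx1-het and primed in wild type, where no H3K27ac peak was listed. Of the distal regions with both marks, 4263 (22.7% of 18790) had H3K4me1 only in wild type. Their acetylation was weak, with a median fold enrichment of 3.88 against 5.31 at regions with both marks in wild type. Of the 4263, 25.4% had H3K27ac in Flt3-ITD and in Runx1-het, and 39.3% in neither. Another 24.3% had it in Flt3-ITD and not Runx1-het, and 11.0% in Runx1-het and not Flt3-ITD. In the reverse direction, 5761 of the 77452 distal H3K4me1-only regions had H3K27ac in wild type (7.44%). The 2 shares have different denominators and are not set against each other.

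Among the 5 strongest regions primed in wild type were those near Ect2l (H3K27ac 12.4, chr10:18173415-18180968, intron) and Hist1h2br (10.8). The other 3, with the strongest (13.1) among them, had no protein-coding start within 50 kb. At Mpo the region chr11:87798818-87799970 in an intron (4.59 and 8.77) was primed in wild type and had both marks in the 3 mutants. At Irf8 the strongest, chr8:120715501-120716819 (4.95 and 5.51), was primed in wild type and in Runx1-het and had both marks in Flt3-ITD. By list, regions primed in wild type were 11 of 28 near monocyte and macrophage genes (39.3%, 23.6 to 57.6%), 22 of 70 near STAT5 targets (31.4%, 21.8 to 43.0%) and 9 of 32 near granulocyte genes (28.1%, 15.6 to 45.4%), against 22.7% of all. They were 2 of 29 near megakaryocyte genes (6.90%, 1.91 to 22.0%) and 0 of 16 near T and NK cell genes (upper bound 19.4%). The intervals of the monocyte list, the megakaryocyte list and the T and NK cell list lay off 22.7%, on few regions each. The list regions lay within 50 kb of a start, while the 22.7% has no distance limit. Single genes also held many of them, as Fli1 had 17 of the 29 megakaryocyte regions and Itgam 6 of the 28 monocyte regions. These shares were not taken without such genes.

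Distal regions with both marks also fell at either extreme. Both marks in all 4 genotypes were found at 5363 (28.5%), with a median H3K27ac fold enrichment of 6.02 and a median width of 1661 bp. Neither mark in any of the other 3 was found at 1066 (5.67%), with medians of 3.53 and 500.5 bp. Another 955 (5.08%) had H3K4me1 only in the other 3, among them intronic regions of Coro2a, an actin-binding protein gene (H3K27ac 7.62), Kcnk13 (6.55), a potassium channel gene, and Gas7 (6.38).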

How the data were processed

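H3K27ac and H3K4me1 were mapped by ChIPmentation in sorted HSCs and HPCs. BWA, MACS2 and the mm10 build are named in the submitters' processing notes, without versions. The sources used here state neither read filters nor the peak threshold. The authors deposited 1 list of narrow peaks per group and mark, pooled over its samples. Each deposited peak has a score, a fold enrichment, a −log10 p, a −log10 q and, as another value, its summit offset. 0 value columns were left unmapped.

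Peaks of both marks were merged at 1 bp, and start sites came from the GENCODE mouse release 21 basic set with 41408 start sites of 21827 protein-coding genes. Each region took the highest fold enrichment of its peaks. Promoter letters came from RefSeq (GRCm38.p6), matched by symbol for 197 of 254 list genes outside chromosome 18. Comparisons of distal regions between genotypes used autosomes, apart from the shares given for the X chromosome. Those of gene promoters used all chromosomes. The shares have no test, since each group is 1 pooled list, and nothing says that the samples behind it came from separate animals. Scripts ran in Python 3.11.15 with pandas 2.3.3, numpy 2.4.6 and matplotlib 3.10.9 and were tested on simulated data.

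Named genes were those of the 5 strongest regions per class within 50 kb, the 10 with most distal regions of 2 classes, list members with most distal regions or with a promoter class apart from their list, and Flt3 and Runx1. Names outside this rule were chosen after their values were seen. The members and the 16 lists were chosen with earlier results of these data known. Alternatives concerned the peak threshold, overlap, merge distance, promoter distance, start sites, list length and chromosomes. Sequence features planned for windows at summits were read in RefSeq promoter windows instead, as no genome sequence was used here.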

Additional observations from a re-analysis of the deposited data

How the results depend on the processing

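The share of distal H3K4me1 regions with H3K27ac (19.5%) was 24.4% among peaks with −log10 q of at least 5, 17.5% when the marks had to share 0.5 of the shorter coverage, 27.1% with peaks within 1 kb merged, 19.9% with promoters within 2 kb, 19.8% with 1 start site per gene, 34.8% with the shortened H3K4me1 list and 19.5% on autosomes. It was 18.8% beyond 1 kb of any annotated transcript start, an alternative chosen after seeing the data. The share of promoter H3K27ac regions with H3K4me1 (43.3%) was 12.96%, 35.3%, 74.7%, 45.8%, 41.9%, 21.9% and 44.4% under the first 7 settings. The stricter threshold kept 18853 H3K27ac and 20438 H3K4me1 peaks. With lists of equal length the autosomal distal share was 21.2% in Flt3-ITD/Runx1-het, 16.7% in wild type and 23.2% in Flt3-ITD, and with −log10 q of at least 5 it was 24.4%, 17.0%, 30.6% and, in Runx1-het, 27.4%. The cause of these shifts was not tested. Both marks were found again in wild type, Flt3-ITD and Runx1-het at 31.5%, 52.1% and 35.9% with 500 bp around the summit, and at 47.3%, 65.1% and 53.9% with equal lists. The share with H3K4me1 only in wild type was 23.7% and 23.5% under the same settings. At 100 kb, 16 of 16 gene lists stayed within their intervals, but these are wide and the regions of the main setting are counted again. The share of the ubiquitous list went from 22.2% (14 of 63, 13.7 to 33.9%) to 30.6% (30 of 98, 22.4 to 40.3%). Its interval then lay above the 19.8% of all genes at 100 kb. The blood transcription factor list had 30.2% and the STAT5 target list 29.4% there, so these lists did not stand above the ubiquitous genes. No paired analysis was possible because each list is pooled and carries no replicate, and for the same reason no replicate could be left out. The alternative windows for sequence features were not run. Read depth is unknown, so an unlisted mark may lie below the peak threshold.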

Other observations

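The X chromosome held fewer active distal regions than the autosomes. Of its 481 distal H3K4me1 regions, 52 held H3K27ac (10.8%, 8.34 to 13.9%). The share on the X chromosome was 10.7% in wild type, 14.6% in Flt3-ITD and 13.5% in Runx1-het.

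Among distal regions with both marks in Flt3-ITD/Runx1-het and neither mark in the 3 other genotypes, the highest H3K27ac fold enrichments were near Sqstm1 (6.63), which encodes an autophagy receptor, and Dgkz (6.55), a diacylglycerol kinase gene. Both lay in introns. The region at Dgkz was 28 bp from another annotated transcript start. At promoters, 1068 of the genes with H3K4me1 only had neither mark in wild type, and 350 had H3K4me1 only there too.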
